A study of Mus musculus with 4 samples.

Results

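Ngfr, the neurotrophin receptor gene of the tumour necrosis factor receptor superfamily, was described together with 5 further genes of neurotrophin signalling in mouse pancreatic islets. The 6 genes were Ngfr, Bdnf, Ntrk2, Ntrk3, Sort1 and Maged1, taken from 17711 genes named on the array. They were chosen by the measured intensities of these knockout and wild type arrays, so those values are a description here and carry no test. All probes annotated to these symbols were used, 20 of the 46632 on the array, and only 4 of them, one each for Ngfr, Ntrk2, Sort1 and Maged1, were above background on both arrays of a genotype.

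RNA of isolated islets was hybridised to 4 Illumina bead arrays. In 2 samples the mice lacked the gene of a bone morphogenetic protein (Bmp) receptor, Bmpr1a, under Pdx1 control, and 2 samples came from wild type mice. Pdx1 is active in the embryonic pancreas and later mainly in beta cells, which sets the cells in which the gene is deleted. All mice were 12 weeks old on a C57BL/6 background. The labels do not say whether wild type mice carried a Cre transgene or whether mice were pooled, so an effect of such a transgene and that of the deletion cannot be told apart. Replicates may be technical, and the p-values given below measure the spread between these samples only.

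Neurotrophins are secreted growth factors best known for keeping neurons alive and shaping their connections. Mature forms signal through Trk receptor tyrosine kinases, with Ntrk2 (TrkB) as the receptor of Bdnf and Ntrk3 (TrkC) as that of neurotrophin 3. Ngfr binds all mature neurotrophins with low affinity, and together with the sorting receptor Sort1 it binds their precursors, while Maged1 is an adaptor that binds the intracellular part of Ngfr. In the pancreas Ngfr is known from nerve-associated glia and stellate cells, and neurotrophin receptors have also been described in endocrine cells.

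Between 14785 and 16171 probes were detected per array, where detection means a detection p below 0.05 against the negative control beads, and raw array medians lay between 76.8 and 81.5. The islet hormone gene Ins2 had raw intensities of 40522 and 36437 in knockout islets, against 35327 and 33760 in wild type islets. All 9 measured islet endocrine markers were above background. The targeted gene Bmpr1a had normalized log2 values of 9.41 ± 0.20 in knockout and 9.69 ± 0.01 in wild type islets (SD, n = 2 each). Its change of -0.28 ± 0.14 (SE) did not pass limma's test (adjusted p = 0.204) and was 0.01 with median scaling. The position of the Bmpr1a probe relative to the deleted part is not known here, so it does not check the labels.

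The promoter windows of Ngfr and Ntrk2, which among the 6 genes had the largest differences between genotypes, are shown to compare their sequence. Each covers 250 bases before to 50 bases after the transcript start, from RefSeq on assembly GRCm38.p6, written 5′ to 3′ on the strand of the gene. Capitals mark matches, on either strand, to GGGCGG, the GC box bound by Sp1-type factors.
Ngfr, chr11:95587649-95587948, minus strand: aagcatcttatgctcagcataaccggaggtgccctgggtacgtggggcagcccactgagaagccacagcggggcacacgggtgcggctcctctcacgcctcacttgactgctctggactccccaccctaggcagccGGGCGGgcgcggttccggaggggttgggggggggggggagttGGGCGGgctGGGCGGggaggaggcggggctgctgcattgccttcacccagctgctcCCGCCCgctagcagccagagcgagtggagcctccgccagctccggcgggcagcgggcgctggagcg
Ntrk2, chr13:58806319-58806618, plus strand: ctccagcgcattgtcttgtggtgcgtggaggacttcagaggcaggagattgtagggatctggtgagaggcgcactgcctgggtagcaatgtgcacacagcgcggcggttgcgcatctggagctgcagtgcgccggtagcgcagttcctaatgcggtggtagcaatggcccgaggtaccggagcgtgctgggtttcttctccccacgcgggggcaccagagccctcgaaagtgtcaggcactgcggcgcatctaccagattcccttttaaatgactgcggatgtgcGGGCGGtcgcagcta
The Ngfr window held 4 GC boxes, beginning 114, 72, 63 and 16 bases before the transcript start. The Ntrk2 window held 1, beginning 35 bases after it. Among 32841 windows of this length in the table, 35.7% held at least 1 GC box and 5.48% held at least 4. The GC content was 71.7% for Ngfr and 61.3% for Ntrk2, against a median of 52.7% over all windows. Neither window matched GGCGCC, a GC-rich element of Bmp-type Smads, or CAGAC, a Smad binding sequence, which were searched on both strands and occur in 11.9% and 49.6% of all windows. TGACG, part of the cyclic AMP response element, was likewise not matched in these windows and occurs in 20.8%. A match is a description of letters and not evidence of binding.

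Ngfr was higher in knockout islets than in wild type islets. The leading Ngfr probe had raw intensities of 1639 and 955 on knockout arrays 1 and 2, against 122 and 138 on wild type arrays 1 and 2. The lowest knockout value lay above the highest wild type value, and the wild type values were close to the background, with detection p-values of 0.0299 and 0.0175. On the normalized log2 scale, after background correction and quantile normalization, Ngfr was 10.12 ± 0.50 in knockout and 6.13 ± 0.26 in wild type islets (SD, n = 2 each). The difference was 3.98, or 15.8-fold, while the ratio of the raw means, which still contain the background, was 9.97. In whole islets, a change in the number of cells of a type and a change in RNA per cell cannot be told apart.

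The size of the Ngfr difference depended on how the dim wild type values were treated. With the authors' processed values it was 3.02, and without background correction 3.04. At a stricter detection p of 0.01, an alternative chosen after the data were seen, the wild type values counted as not well above background and Ngfr was at least 12.0-fold higher in knockout islets. Leaving out each array in turn gave 3.57 to 4.30, lowest without knockout 1 and highest without knockout 2. The other Ngfr probe was not detected on any array, at 74.4 and 77.0 in knockout islets and 72.2 and 61.7 in wild type islets. Both probes are annotated to the same transcript record, so the Ngfr result rests on 1 of 2 probes.

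The knockout arrays also differed from each other for Ngfr. Knockout 1 exceeded knockout 2 by 0.71 on the normalized log2 scale, and only 2.79% of the 15639 tested probes had a wider gap between these arrays. In raw units this gap was 10.9 times the combined standard error of the beads, which is technical error within an array, and 35.9% of all tested probes differed between the knockout arrays by more than 1.96 times that error. For the wild type arrays, array 1 minus array 2 was -0.37, a gap of 1.71 bead standard errors. In order of level, knockout 1 stood above knockout 2, and both stood above wild type 2 and wild type 1.

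**Figure D1:**
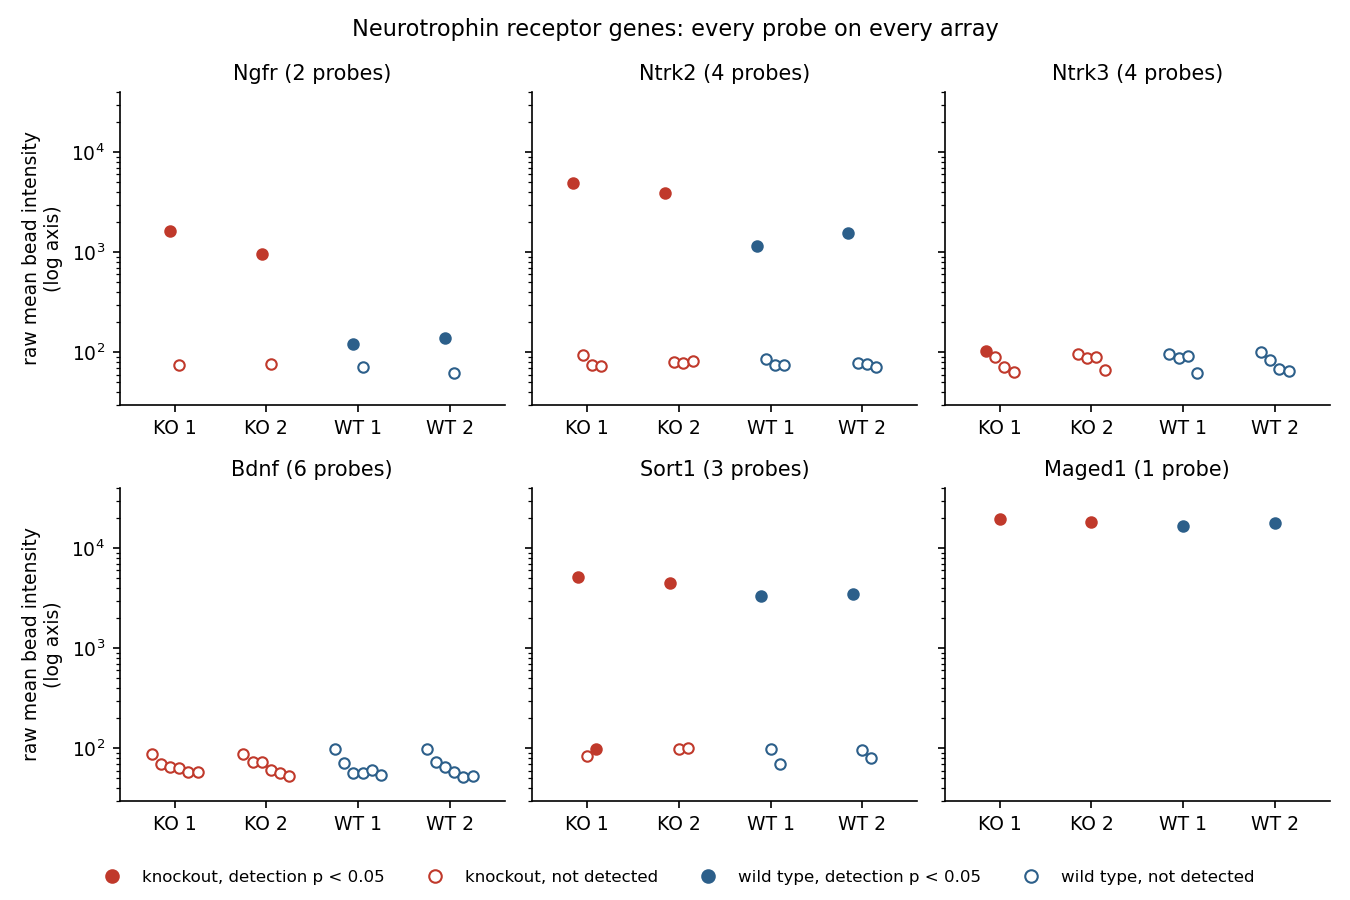
Raw mean bead intensity (log axis) of each probe of the 6 genes on knockout (KO) and wild type (WT) arrays, with bars for the standard error over beads, mostly smaller than the points. Filled points have a detection p below 0.05. Ngfr and Ntrk2 each have 1 probe that is higher on both knockout arrays, while Bdnf stays near 50 to 100 on all 4.

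Ntrk2, the receptor tyrosine kinase gene for Bdnf, was also higher in knockout islets. Its leading probe read 4898 and 3888 in knockout islets, against 1153 and 1571 in wild type islets. Both knockout values lay well above both wild type values. Normalized log2 values were 11.99 ± 0.17 in knockout and 10.45 ± 0.26 in wild type islets (SD, n = 2 each), a difference of 1.54, or 2.91-fold. Unlike Ngfr, Ntrk2 was well above background in both genotypes, and its difference was 1.54 with the authors' values and 1.49 without background correction. Leaving out each array gave 1.35 to 1.72, and median scaling gave 1.84.

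The other 3 Ntrk2 probes were not detected on any array, with raw intensities of 73.7 to 95.0 in knockout and 72.1 to 85.05 in wild type islets. The annotation assigns 2 of these dim probes to a second transcript record of Ntrk2 and the remaining dim probe to a cDNA clone, while the bright probe belongs to a record of its own. Ntrk2 is known to give rise to a full-length receptor and to truncated forms that lack the kinase. Which receptor form each probe detects was not tested, because probe sequences were not used here. The Ntrk2 difference therefore does not show a rise of the form with the kinase.

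Ntrk3, the receptor gene for neurotrophin 3, was at background in both genotypes. Its 4 probes read 64.3 to 103 in knockout islets and 62.3 to 101 in wild type islets, and 1 of 16 readings, on knockout 1, had a detection p below 0.05. The ranges of the genotypes overlapped almost fully. Bdnf, the ligand of Ntrk2, was likewise not detected in any of 24 readings from 6 probes. Bdnf probes read 52.5 to 87.9 in knockout islets and 51.9 to 98.4 in wild type islets. The ranges pool all 6 probes and overlapped. The brightest of these Bdnf probes read 87.2 and 87.9 in knockout islets, against 98.4 and 97.8 in wild type islets, and was not detected on any array. A difference in Bdnf or Ntrk3 was not measurable at these intensities.

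Sort1, which encodes the sorting receptor sortilin, was detected by 1 bright probe. The bright Sort1 probe read 5145 and 4543 in knockout islets, against 3300 and 3468 in wild type islets. The groups did not overlap, and the difference was small beside those of Ngfr and Ntrk2. Normalized log2 values were 12.13 ± 0.07 in knockout and 11.78 ± 0.02 in wild type islets (SD, n = 2 each), a difference of 0.35, or 1.27-fold, and 0.62 with median scaling. The median difference of all tested probes was 0.05, or 0.21 with median scaling. The other 2 Sort1 probes read 84.4 to 102 in knockout and 70.4 to 99.2 in wild type islets, with 1 of 8 readings detected.

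Maged1, the adaptor gene, was bright on all arrays. Its only probe read 19457 and 18097 in knockout islets, against 16694 and 18077 in wild type islets. Knockout 2 and wild type 2 were nearly equal in raw units. Normalized log2 values were 14.21 ± 0.04 in knockout and 14.08 ± 0.02 in wild type islets (SD, n = 2 each), a difference of 0.14 that took the other sign with cyclic loess, at -0.04.

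Of the 4 tested probes of these genes, those of Ngfr and Ntrk2 were past limma's threshold and both were higher, beside 14.1% of all tested probes called higher. Since this contrast chose the genes, nothing is read from that count. The direction was the same in all 4, from 3.98 for Ngfr to 0.14 for Maged1, although Maged1 changed sign as described. For the same reason nothing is read from this shared direction, and the probes of Sort1 and Maged1 did not pass.

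**Figure D2:**
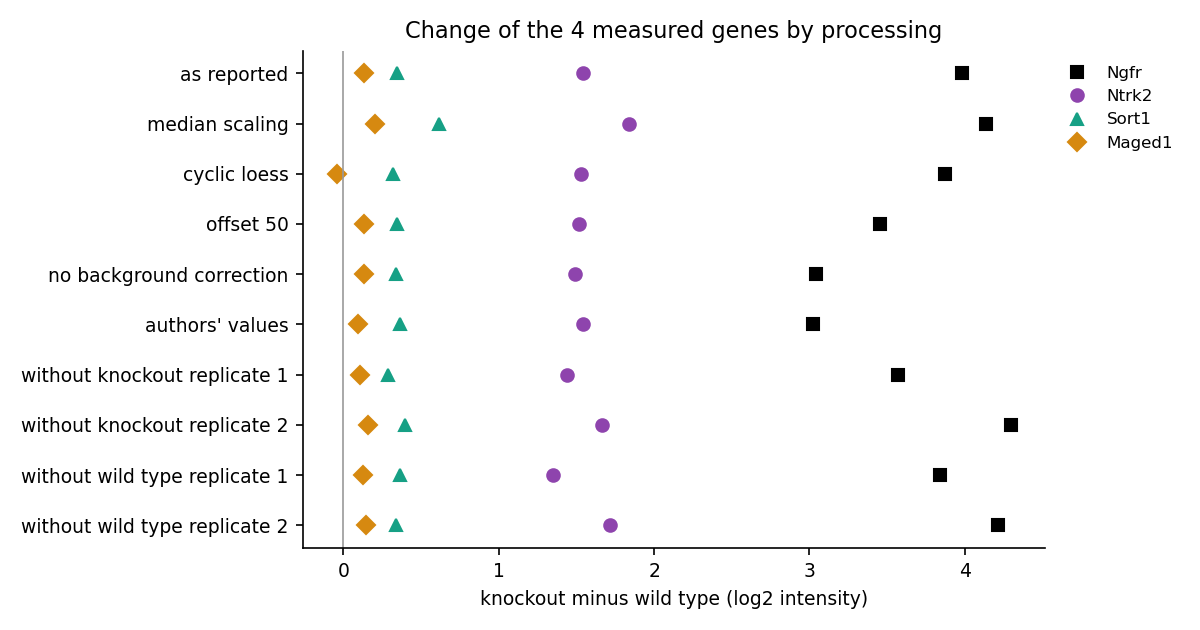
Knockout minus wild type difference (log2 intensity) of the 4 measured genes, as reported and under alternative processing or with 1 array left out. Ngfr ranges from 3.02 to 4.30 over the settings shown and Ntrk2 from 1.35 to 1.84, while Maged1 crosses 0 with cyclic loess.

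The rest of the pathway was read through lists of genes without these 6, covering 101 genes, of which 84 were on the array and 55 were tested. A gene stood for its brightest tested probe. In knockout islets 7 genes rose and 6 fell past limma's threshold, or 23.6% of those tested, beside 14.4% called higher and 11.0% called lower among all 9352 tested genes (25.5% in either direction). This share was close to that of all genes. The median change of the 55 genes was 0.09, against 0.06 for all tested genes. With the Gdnf family and the tumour necrosis factor receptor superfamily, 2 related families, added, 11 of 68 tested genes rose and 10 fell, or 30.9%, and 7 of these 21 calls were in the superfamily. Of these 68 genes, 20 rose and 7 fell with median scaling, a shift in the same direction as that of all probes, of which 71.7% of calls were higher with median scaling and 55.2% as reported. Without wild type 2 only 12 of them passed, 6 in each direction, and without wild type 1 there were 14. The ligand gene Ntf5 read 52.2 to 60.3 and was not detected.

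Among the sorting receptors related to Sort1, Sorl1 fell by 1.21 ± 0.12 (SE, log2 units, adjusted p = 0.00144 in limma). Sorl1 had values of 7.96 and 7.91 in knockout islets, against 9.15 and 9.14 in wild type islets, and its second probe fell by 0.93. The related genes Sorcs1, Sorcs2 and Sorcs3 were not tested, being near background throughout. Sorl1 and Sort1, which share the Vps10p ligand-binding domain, had values of opposite sign, that of Sort1 not past the threshold. All 12 lymphocyte markers fell on these arrays, and the part of lymphocytes in the Sorl1 fall was not tested.

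Of 12 tested genes encoding Ngfr interactors and co-receptors, 2 rose and 2 fell. Lingo1, which encodes a co-receptor in the Nogo receptor complex with Ngfr, had 7.02 and 6.73 in knockout islets, against 5.87 and 5.79 in wild type islets. With wild type values close to background (detection p 0.0349 and 0.0356), it rose by 1.05 ± 0.15 (SE, log2, adjusted p = 0.00495 in limma). Its difference was 0.61 with the authors' values. Rtn4, the gene of Nogo, an inhibitor of nerve growth that acts through this complex, rose by 0.74 ± 0.12 (adjusted p = 0.00958). A second Rtn4 probe, annotated to the same transcript record, was at 0.90 and also past the test. Rtn4 probes of other transcript records were not detected on any array. Rtn4r, the gene of the Nogo receptor, was not detected either, at 62.1 to 87.3. The Rtn4 call was lost without wild type 1 or wild type 2 (adjusted p = 0.0720 and 0.0777). Ndn, the gene of necdin, a relative of Maged1, fell by 0.58 ± 0.15 (adjusted p = 0.0369), a call lost without knockout 1, wild type 1 or wild type 2 (adjusted p = 0.0957, 0.212 and 0.102) and also with median scaling. Mapk8, the gene of Jun kinase 1, which acts downstream of Ngfr, fell by 0.52 ± 0.14 with its brightest probe (adjusted p = 0.0386), while another of its 4 tested probes rose by 0.71 (adjusted p = 0.0122). The Mapk8 call was lost without knockout 1, wild type 1 or wild type 2 (adjusted p = 0.107, 0.148 and 0.180). Without wild type 1 or wild type 2 only 1 gene of these 12 rose and 0 fell in limma, and with median scaling 4 rose and 0 fell.

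Of 21 tested Trk adaptor and signal carrier genes, 2 rose, 2 fell and 17 did not pass. Plcg2, a phospholipase gene that is also prominent in B cell receptor signalling, had 6.66 and 6.42 in knockout islets, against 8.84 and 8.87 in wild type islets. It fell by 2.32 ± 0.14 (SE, log2, adjusted p = 0.000237 in limma), on arrays where 12 of 12 lymphocyte markers fell, and the part of lymphocytes in this was not tested. Rps6ka3, a kinase gene downstream of Mapk signalling, was at least 1.54-fold higher in knockout islets, wild type being not well above background (adjusted p = 0.00680, or 0.0612 without wild type 2). The transcription factor gene Creb1 did not clear background on the knockout arrays and was lower there by at least 1.27-fold (adjusted p = 0.0376), a call lost without knockout 1, wild type 1 or wild type 2 (adjusted p = 0.0931 to 0.200). Sqstm1, an adaptor gene, rose by 0.49 ± 0.12 (adjusted p = 0.0302) and missed the threshold whichever of the 4 arrays was left out (adjusted p = 0.0524 to 0.159). The counts were 1 and 1 without knockout 1 or wild type 1, 0 and 1 without wild type 2, and 6 and 2 with median scaling.

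The 4 tested genes of enzymes that cut proneurotrophins did not pass as reported. The convertase gene Pcsk6 was at 0.45 ± 0.13 (SE, log2, adjusted p = 0.0540 in limma) but passed under 7 alternatives and missed the threshold under 6 (adjusted p = 0.0169 to 0.237). It passed without background correction (0.39, adjusted p = 0.0299), with the authors' values (0.38, adjusted p = 0.0332) and without knockout 2 (0.55, adjusted p = 0.0476), among others. The metalloprotease gene Mmp9 was at 0.50 ± 0.18 (adjusted p = 0.0839) and passed without knockout 1 (0.69, adjusted p = 0.0319). Of 7 genes for receptor shedding and gamma-secretase, the complex that releases the inner part of Ngfr, Aph1b rose by 0.80 ± 0.15 (adjusted p = 0.0124). The Aph1b call was lost without wild type 1 or wild type 2 (adjusted p = 0.0777 and 0.0794). Aph1a, another subunit gene, was at 0.34 ± 0.14 with its brightest probe (adjusted p = 0.120), while its other tested probe rose by 0.88.

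Of 10 tested genes known to respond to neurotrophins, 2 rose and 1 fell. Npy, a neuropeptide gene, had 9.53 and 9.52 in knockout islets, against 8.10 and 8.17 in wild type islets, and rose by 1.38 ± 0.12 (SE, log2, adjusted p = 0.000881 in limma). Dclk1, a microtubule-associated kinase gene, was at least 1.96-fold higher in knockout islets, wild type again not clearing background. The adjusted p of Dclk1, 0.00414 in limma, belongs to its normalized difference of 1.16 and does not test this bound. Egr2, an early response gene, also below background on the knockout arrays, was lower by at least 1.56-fold (adjusted p = 0.0112, or 0.0719 without wild type 2). The median of these 10 genes was -0.09. It covers 4 genes on which the knockout arrays differed widely and which did not pass. These were Fos (-0.85), Egr1 (-0.84), Junb (-0.89) and Arc (0.53). Their SDs were 1.43 to 2.10 in knockout and 0.02 to 0.39 in wild type islets (n = 2 each).

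For comparison, 2 related receptor families were read the same way. In the Gdnf family, another group of neuronal growth factors, 3 of 8 genes were tested and Gfra1, a co-receptor gene, fell by 0.63 ± 0.14 (SE, log2, adjusted p = 0.0228 in limma). Gfra1 lost its call without knockout 1, wild type 1 or wild type 2 (adjusted p = 0.0627 to 0.133). Ret, the shared receptor kinase gene, was at -0.45 ± 0.29 and did not pass (adjusted p = 0.292). Ret had values of 8.72 and 9.64 in knockout islets, against 9.67 and 9.59 in wild type islets, and was at 0.01 without knockout 1 and at -0.91 without knockout 2 (adjusted p = 0.0120).

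In the tumour necrosis factor receptor superfamily, to which Ngfr belongs, 4 of 10 tested genes rose and 3 fell. Among all tested genes 14.4% were called higher and 11.0% lower. Tnfrsf11b, the gene of the decoy receptor osteoprotegerin, had 10.69 and 10.53 in knockout islets, against 7.63 and 7.68 in wild type islets. It rose by 2.96 ± 0.13 (SE, log2, adjusted p = 0.000113 in limma). Tnfrsf11a, the receptor gene for the ligand that this decoy captures, was at 1.42 ± 0.16 and Tnfrsf1a at 1.35 ± 0.13, both past the test. Tnfrsf9 also rose, by 0.70 ± 0.18 (adjusted p = 0.0326 in limma). The wild type values of Tnfrsf11a were close to background (detection p 0.0218 and 0.0181), and its difference was 0.89 with the authors' values. The genes that fell were the lymphocyte receptor genes Tnfrsf13c, at least 9.89-fold lower, Tnfrsf13b, which fell by 2.13 ± 0.19 and was detected on 1 of 2 knockout arrays, and Tnfrsf4, at least 1.54-fold lower. Tnfrsf13c and Tnfrsf4 did not clear background on the knockout arrays, the same arrays on which the 12 lymphocyte markers were low, and the part of lymphocytes was not tested. With each array left out in turn, 3 or 4 genes of this family rose and 3 or 4 fell.

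**Figure D3:**
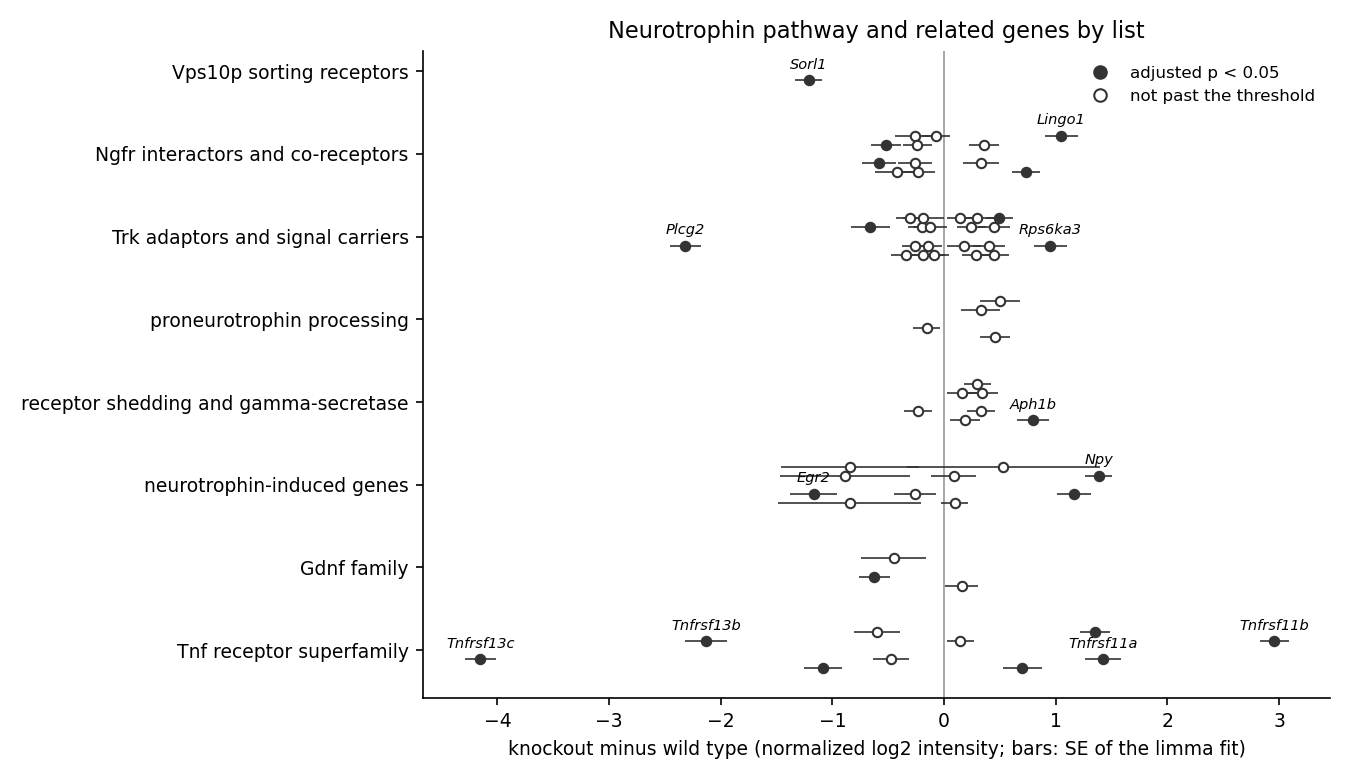
Knockout minus wild type change (normalized log2 intensity) of each tested gene of the pathway and family lists, with bars for the SE of the limma fit. Filled points are past an adjusted p of 0.05. Changes past the threshold lie on both sides of 0, up to 2.96 for Tnfrsf11b, and the tumour necrosis factor receptor superfamily has the widest range.

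The genes whose pattern was most like that of Ngfr were found by the Euclidean distance between normalized log2 values over the 4 arrays, each gene centred on its own mean. The nearest of 9351 genes was Rerg, a small GTPase gene, at a distance of 0.40. Rerg read 1296 and 582 in knockout islets, against 79.5 and 101 in wild type islets, with knockout 1 the higher as for Ngfr. The wild type values of Rerg were not well above background, and it was at least 14.6-fold higher in knockout islets. Next came Gdf3, a growth factor gene of the transforming growth factor beta family, at 0.58, and B3galt1, a galactosyltransferase gene, at 0.61. Gdf3 read 3410 and 2537 in knockout islets, against 277 and 277 in wild type islets, a difference of 3.58 on the normalized log2 scale. Sftpd, the gene of surfactant protein D, followed at 0.68 and Ugt1a7c, a glucuronosyltransferase gene whose probes may also detect its relatives, at 0.88. The last 2 had their higher knockout value on knockout 2, unlike Ngfr. Ntrk2 ranked 119 by this measure, at a distance of 2.46, while the median distance over all genes was 3.97. With 4 arrays in 2 groups, the measure is set mainly by the size of the difference between genotypes, so these values are a description with no test.

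**Figure D4:**
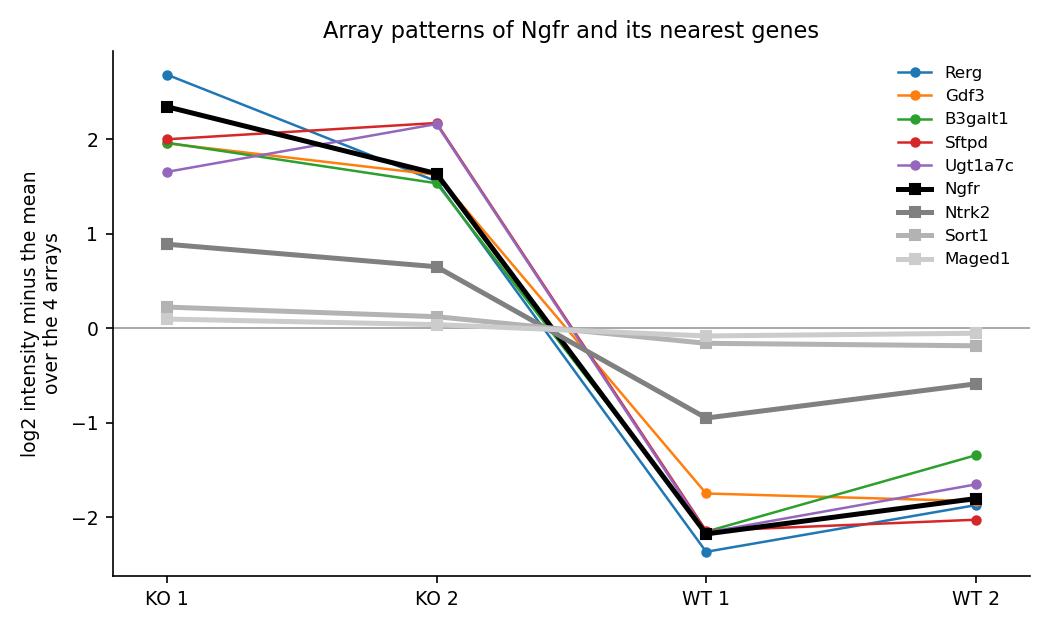
Normalized log2 intensity minus the mean over the 4 arrays for Ngfr, the other 3 measured genes of its group (squares) and the 5 genes nearest to Ngfr (circles), by array. All 5 nearest genes lie above their mean on both knockout (KO) arrays and below it on both wild type (WT) arrays, and Ntrk2 has the same order of arrays as Ngfr with smaller deviations.

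Markers of other cell types that may carry Ngfr were read on the same arrays. Of 12 Schwann and glial markers on the array, 8 were not well above background in either genotype, including the defining genes Sox10, S100b, Gfap and Foxd3, with Sox10 at 63.0 to 71.4 on all arrays. The 4 that were tested, Ncam1, Mbp, Pmp22 and Cryab, did not pass, and their summed raw intensity was 4174 to 4276 in knockout islets and 3721 to 4112 in wild type islets. Ncam1 alone gave the largest part of each sum, at 2564 to 2822 in knockout and 2441 to 2872 in wild type islets. Of 14 markers of stellate cells, fibroblasts and pericytes, 9 were tested, 2 fell (Vim and Pdgfra) and 0 rose. Among all tested genes 11.0% were called lower and 14.4% higher. The sums were 3016 on knockout 1 and 4659 on knockout 2, against 4353 and 4417 in wild type islets. Knockout arrays 1 and 2 differed for Dcn, at 498 and 1355, and for Col3a1, at 325 and 749. Des, Col1a1, Col1a2, Lum and Tagln were not well above background in either genotype. The part of these cells in the Ngfr difference was not tested.

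Of 12 markers of neurons and nerve, 5 were tested and 1 rose, the RNA-binding protein gene Elavl4, which changed by 0.67 ± 0.14 (SE, log2, adjusted p = 0.0172 in limma). Their sum was 2603 to 2671 in knockout and 2046 to 2124 in wild type islets, while Dbh, Chat, Slc18a3 and Nefl were not detected on any array. Of 8 markers of follicular dendritic cells, which carry Ngfr in lymphoid tissue, 6 were tested and 4 fell, while Cr2 and Madcam1 were not well above background. Those that fell were Clu, Mfge8, Fcer2a and Fcgr2b, while Cr1l and Cxcl13 did not pass. Among all tested genes 11.0% were called lower, and the part of other cell types in these falls was not tested. Sums of the 6 tested markers were 4514 to 5254 in knockout and 6942 to 8078 in wild type islets. All 12 lymphocyte markers fell, with sums of 1303 to 1676 in knockout and 15497 to 16375 in wild type islets. Of 4 macrophage markers 3 fell and 1 rose, with sums of 2589 to 2972 in knockout and 7060 to 9026 in wild type islets. The riser was Adgre1, at 0.78 ± 0.12 (SE, log2, adjusted p = 0.00694 in limma). Cd74, which fell, gave the largest part of each sum, at 1827 to 2082 in knockout and 5316 to 6483 in wild type islets. The part of lymphocytes in the Cd74 fall was not tested, so these sums do not show a change in macrophages. Sums of 7 endothelial markers were 8301 to 9114 in knockout and 6195 to 6225 in wild type islets, but 0 rose and 0 fell past the test. Those of 4 tested duct markers were 6168 to 7333 in knockout and 5127 to 5558 in wild type islets, with Cftr higher and Sox9 lower past the test. Acinar markers summed to 60827 to 65204 in knockout and 70675 to 84068 in wild type islets, with 2 of 7 lower.

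**Figure D5:**
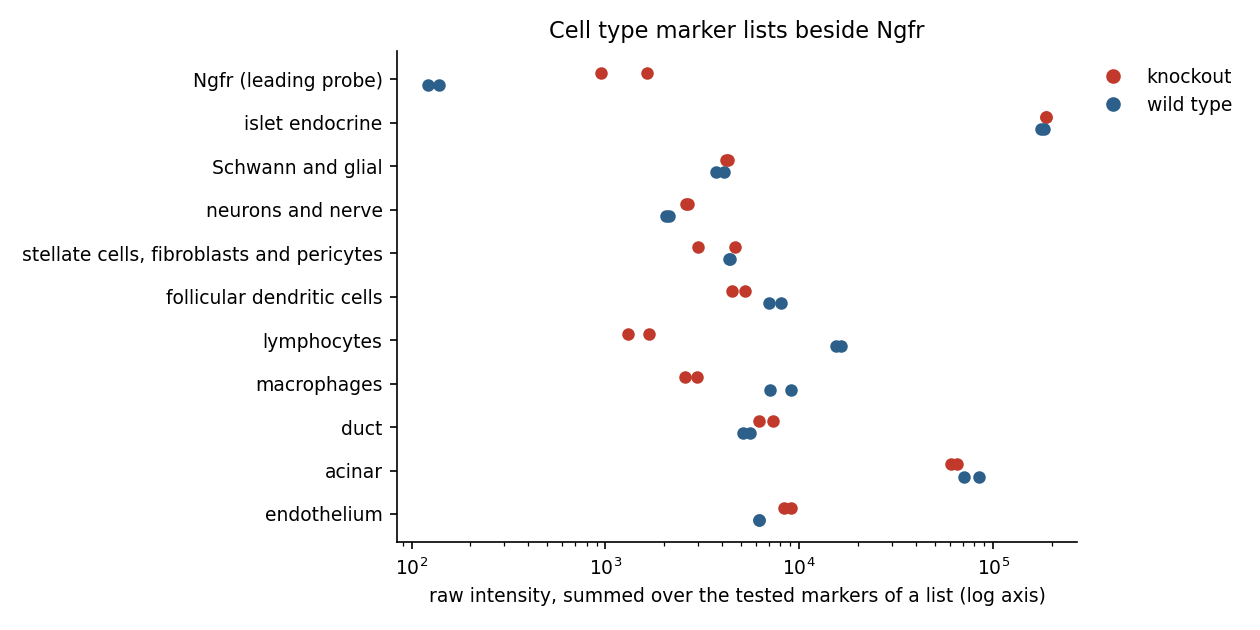
Raw intensity of the leading Ngfr probe, and raw intensity summed over the tested markers of each cell type list (log axis), for each knockout and wild type array. Ngfr is about 10 times higher on the knockout arrays by raw means, and the lymphocyte sum is lower there. The Schwann and glial sum is mostly Ncam1, with the defining glial genes near background.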

How the data were processed

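Islet RNA was extracted with Trizol and labelled with biotin, per the labels. The deposited scanner table gives, per the file headers, for each probe and array the linear intensity averaged over beads, its standard error, a bead count and a detection p-value. The authors' processed table holds log2 values of 46614 probes, equal to the log2 raw intensity for wild type 1, while the normalization of the other arrays, the scanner software and the genome build are not given in the sources used here.

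In limma 3.58.1 (R 4.3.3), normexp background correction (offset 16, negative controls inferred through the detection p-values) preceded quantile normalization and log2. The test covered 15639 probes, those with a detection p under 0.05 in both replicates of either genotype. Knockout was compared with wild type by lmFit and eBayes with Benjamini-Hochberg adjustment over all tested probes at 0.05, and the steps were tested on simulated data. Where a genotype was below background on both arrays, the fold is a bound: the mean of the brighter genotype against, whichever is larger on each array, the dimmest detected probe or the probe itself. Such a gene was tested only because the brighter genotype was detected. An adjusted p printed beside a bound is that of the limma fit to the normalized values and does not test the bound. Precision is limited by having 4 arrays.

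Symbols came from the platform annotation, with 1 symbol for 29965 probes, several for 10, and 16657 probes not listed. The 6 genes, and the lists of pathway genes and markers, were chosen with earlier results of these data known. The genes named were all 6, up to 6 of each list past the threshold or else the 2 with the largest change, the 5 nearest patterns and Bmpr1a. Genes of the marker lists, Ins2, undetected genes, Fos, Egr1, Junb, Arc and Tnfrsf9 were named after their values were seen. The files name no slide or scan batch.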

Additional observations from a re-analysis of the deposited data

How the results depend on the processing

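The Ngfr difference of 3.98 stayed positive under every alternative run and was 3.04 without background correction, 3.45 with an offset of 50 and 3.02 with the authors' values. It was 0.12 for the other, undetected Ngfr probe and 2.05 for the mean over both probes. Leaving out each array gave 3.57 to 4.30. Over all tested probes 3986 passed, 1639 without wild type 1 and 1476 without wild type 2, with a range of 1476 to 3983 when each array was left out. The 21 genes of the pathway and related family lists past the threshold became 12 to 26 when each array was left out, and 25 when any tested probe of a gene counted. Signs turned for Bmpr1a with median scaling (0.0126), Maged1 with cyclic loess (-0.0417) and Ret without knockout 1 (0.0117, within a range of -0.91 to 0.0117 over arrays left out). Of 423 values of single genes other than Ngfr under alternatives, 374 kept their direction and side of the threshold or moved by less than the spread between replicates, 32 lost a call, 9 gained a call, 5 moved further and 3 changed sign. Same-numbered arrays of the genotypes did not deviate together (r = 0.02 across probes, which are not independent replicates). With the replicate number as a block, 3936 probes and 21 genes of the pathway and family lists passed and the Ngfr difference stayed 3.98. Intensities near background limit Ngfr in wild type islets, Bdnf and Ntrk3 in both genotypes.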
